A study of Schmidtea mediterranea with 60 samples.

Results

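The set examined here holds the 49 transcripts, of 28742 in the count table, that were induced within 3 hours of amputation at control wounds of the planarian Schmidtea mediterranea, a flatworm that regrows missing body parts. The members were chosen by their measured values. Counts were scaled to counts per 1000000 counts of the library (CPM), and a level is log2 of the mean CPM of 5 libraries plus 0.5. A member had to rise by at least 1 on that scale (2-fold) between 0 and 3 hours post-amputation (hpa) in control, with every control library at 3 hpa above every control library at 0 hpa. It also had to lie within 0.6 of control in libraries labelled bmp4 RNAi at 0 hpa, and its 5 control libraries at 0 hpa had to span less than 4-fold. The rise alone was met by 59 transcripts, separate groups by 56 of these and nearness at 0 hpa by 49, all of which met the last condition. Another 2 transcripts that the rule leaves out by ID failed it anyway. The choice read the control libraries at 0 and 3 hpa and the bmp4 RNAi libraries at 0 hpa, so values that rest on these groups are given as a description with no test.

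Animals of an asexual clonal strain (CIW4) were fed liver mixed with double-stranded RNA 4 times, cut 7 days after the last feeding, and sampled at anterior-facing wounds of tail fragments taken from behind the pharynx. The RNA matched bmp4 in the treated animals and the nematode (C. elegans) gene unc-22 in the controls. Sampling began at 0 hpa, was repeated at 3, 6 and 16 hpa and ended at 24 and 48 hpa, with 5 libraries for each of the 12 groups and 5 wounds pooled in each library, and each replicate is thus a pool of wounds. The comparison asks whether transcripts that a control wound induces early depend on bmp4, and for how long.

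Planarian wounds switch on genes within hours in epidermis, muscle and neoblasts, the dividing stem cells that supply new tissue. Part of this early programme follows any wound and fades within about a day, and wounds that remove tissue keep or add expression later, while the missing part is rebuilt. BMP proteins are secreted ligands that act through receptor kinases and Smad transcription factors, and in planarians bmp4 is best known for patterning the dorsal side. In samples of whole wounds, a lower level can come from fewer cells of the type that carries a transcript or from less RNA per cell, and these cannot be told apart.

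Library totals ranged from 5.92 M to 23.9 M counts (M, 1000000 counts) with a median of 17.3 M, and the smallest library was a bmp4 RNAi replicate at 3 hpa. The 8 mitochondrial transcripts are a sign of sample quality. At 3 hpa they took 0.294% to 0.393% of counts in bmp4 RNAi libraries, against 0.201% to 0.315% in control libraries. At 6 hpa the ranges were 0.195% to 0.565% in bmp4 RNAi libraries and 0.224% to 0.349% in control. At 48 hpa they were 0.278% to 0.711% in bmp4 RNAi libraries and 0.320% to 0.559% in control. The part of these transcripts in the results was not tested. The bmp4 transcript itself (dd_Smed_v6_17402_0_1) went against the label at 0 hpa, where it averaged 6.73 ± 1.2 CPM in libraries labelled bmp4 RNAi and 2.82 ± 0.193 CPM in control (SD, n = 5 each), a log2 difference of 1.25 that did not pass the test (SE 0.514, edgeR BH-adjusted p = 0.123). The libraries at 0 hpa were apart, at 5.83 to 8.73 CPM under that label and 2.58 to 3.10 CPM in control. All groups entered the fit behind the test, and under that label the SD at 16 and 24 hpa was 5.39 and 6.63 CPM. The bmp4 transcript was lower at 48 hpa, with a mean of 1.76 ± 0.993 CPM under that label and 6.06 ± 0.685 CPM in control (log2 fold change -1.74, SE 0.544, edgeR BH-adjusted p = 0.0094). At 3, 16 and 24 hpa its mean was higher in libraries labelled bmp4 RNAi, with single libraries on both sides of control, and at 6 hpa it was lower without passing the test. The treated libraries are therefore called the libraries labelled bmp4 RNAi. For equinox (dd_Smed_v6_20318_0_1), a gene of the wound epidermis, the level was lower at all 6 times, with log2 fold changes between -2.70 and -1.71.

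Almost none of the members carries a name in the sources used here. The files give IDs of a transcriptome assembly (dd_Smed_v6) and no gene names or genome positions, and the study's annotation was held in part. It described 1 of the 49 members, dd_Smed_v6_10685_0_1, whose longest open reading frame matched the Pfam domains SH2 and SOCS_box. In vertebrates that pair of domains marks the SOCS proteins, which bind phosphorylated receptors and kinases and damp cytokine signalling. The other 48 members are given by ID, and no sequence was used.

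The members ranged over 4 orders of abundance. Their control means spanned 0.0981 to 1545 CPM at 0 hpa with a median of 5.33 CPM, and 0.800 to 5266 CPM at 3 hpa with a median of 15.7 CPM. Together they took between 0.303% and 1.19% of the counts of a library, and the most abundant member, dd_Smed_v6_320_0_1, supplied a median of 36.6% of that. At the low end, 8 members averaged fewer than 30 counts per library, the lowest 6.37 counts. All 49 passed the filter on low counts.

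Most rises to 3 hpa in control were modest. Of the 49 members 43 rose by 2-fold to 4-fold and 6 by more. The smallest rises inside the threshold were 1.01 in log2 level for each of 3 members, and the largest outside it were 0.99, 0.99 and 0.97, with 14 transcripts outside above 0.9. The largest rise, 4.59, was that of dd_Smed_v6_16222_0_1, and the next, 3.64, that of dd_Smed_v6_9273_0_1.

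Induction by 3 hpa was also present in libraries labelled bmp4 RNAi, which the rule did not read at that time. There 34 of the 49 members rose at least 2-fold, against 0.319% of all 18510 transcripts tested, and in control 49 of 49 did so by construction, with the same 0.319% of all tested. Every library at 3 hpa lay above every library at 0 hpa for 44 members in libraries labelled bmp4 RNAi, where 7.01% of all tested did so. The overlapping ones were dd_Smed_v6_158_0_1, dd_Smed_v6_17168_1_1, dd_Smed_v6_26780_0_1, dd_Smed_v6_31879_0_1 and dd_Smed_v6_9491_0_1, with changes of 0.53, 0.25, 0.97, 0.01 and 0.75. No member fell by 3 hpa, and the median change was 1.21 in libraries labelled bmp4 RNAi and 1.19 in control. The rise was smaller than in control for 28 members and larger for 21. Choosing on the control rise favours members whose control level at 3 hpa happened to be high, so this split is no evidence of a difference.

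At each time after 3 hpa fewer members stood at least 2-fold above 0 hpa in libraries labelled bmp4 RNAi than in control. Choosing on the control rise also favours members whose control level at 0 hpa happened to be low. This can raise the control counts and medians below, so they are given as a description. At 6 hpa 36 members stood at least 2-fold above 0 hpa in libraries labelled bmp4 RNAi and 42 in control, where 0.54% and 1% of all tested did. At 16 hpa there were 26 in libraries labelled bmp4 RNAi and 35 in control (0.956% and 1.18% of all tested). At 24 hpa the counts were 17 in libraries labelled bmp4 RNAi and 26 in control (0.81% and 1.3%), and at 48 hpa they were 12 in libraries labelled bmp4 RNAi and 22 in control (0.573% and 2.66%). The median change peaked at 6 hpa, at 1.23 in libraries labelled bmp4 RNAi and 1.67 in control, and at 48 hpa stood at 0.52 in libraries labelled bmp4 RNAi and 0.91 in control.

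**Figure D1:**
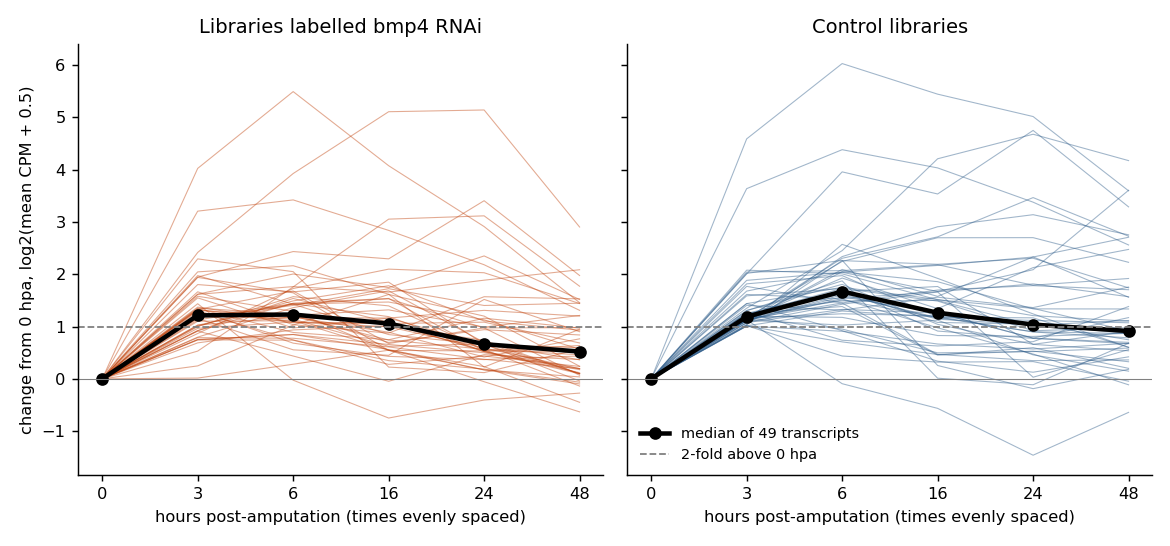
Change in level from 0 hpa, as log2(mean CPM + 0.5) of 5 libraries, for each of the 49 transcripts (thin lines) and their median (black) in libraries labelled bmp4 RNAi (left) and control (right). The dashed line marks 2-fold. By 48 hpa 12 transcripts lie above it in libraries labelled bmp4 RNAi and 22 in control; the steps up to 3 hpa in control were used to choose the transcripts.

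The time of the highest mean is given as a description, since the control values at 3 hpa chose the members. In the libraries labelled bmp4 RNAi 18, 12, 12, 6 and 1 members were highest at 3, 6, 16, 24 and 48 hpa. In control these numbers were 10, 20, 5, 9 and 5. The time was the same in both for 20 members, earlier in libraries labelled bmp4 RNAi for 17 and later for 12. The members highest at 48 hpa in control were dd_Smed_v6_11254_0_1, dd_Smed_v6_12691_0_1, dd_Smed_v6_13860_0_1, dd_Smed_v6_13985_0_1 and dd_Smed_v6_9610_0_1. Of these dd_Smed_v6_12691_0_1 was also highest at 48 hpa in libraries labelled bmp4 RNAi, where it averaged 5.39 CPM, against 7.92 CPM in control. Those highest at 16 hpa in control were dd_Smed_v6_31634_0_1, dd_Smed_v6_4619_0_1, dd_Smed_v6_51966_0_1, dd_Smed_v6_5406_0_1 and dd_Smed_v6_57931_0_1.

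At each time from 6 to 48 hpa more members were lower than higher in libraries labelled bmp4 RNAi. These groups did not enter the choice, and members were called at an adjusted p under 0.05 by edgeR's quasi-likelihood test, adjusted over all 18510 transcripts. At 6 hpa 23 members were lower and 1 was higher, where 7.43% of all tested were lower and 9.67% higher. At 16 hpa 25 were lower and 7 higher (9.56% and 9.68% of all tested), at 24 hpa 22 were lower and 4 higher (6.5% and 10.2%), and at 48 hpa 31 were lower and 3 higher (18.6% and 17.3%). As shares of the members, 46.9%, 51%, 44.9% and 63.3% were lower at 6, 16, 24 and 48 hpa.

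The typical difference was small. The members' median log2 fold change at 6, 16, 24 and 48 hpa was -0.35, -0.33, -0.32 and -0.51, and over all tested it lay between 0.00 and 0.02. At 48 hpa every library labelled bmp4 RNAi lay below every control library for 29 members and above it for 0, where 13.3% and 8.76% of all tested were. At 6 hpa it lay below for 19 and above for 1 (4.96% and 6.96% of all tested), at 16 hpa for 21 and 8 (5.65% and 11.6%) and at 24 hpa for 18 and 2 (3.92% and 6.79%). Members called at 48 hpa had a median of 549 counts per library and those not called 95.0. Of the 8 members that averaged under 30 counts, dd_Smed_v6_26780_0_1 (log2 fold change -1.72), dd_Smed_v6_31879_0_1 (-1.71) and dd_Smed_v6_31634_0_1 (0.80) were called there.

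**Figure D2:**
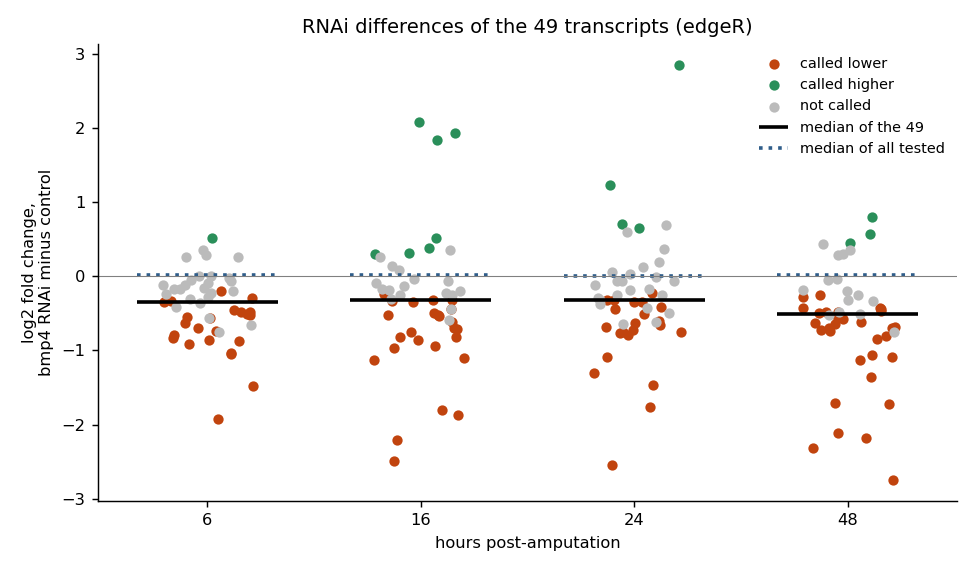
edgeR log2 fold change, libraries labelled bmp4 RNAi minus control, of each of the 49 transcripts at 6, 16, 24 and 48 hpa, coloured by call, with horizontal jitter only for display. Black bars are medians of the 49 (-0.35, -0.33, -0.32 and -0.51) and dotted bars medians of all transcripts tested, near 0.

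Some of these shares differed when the rise was read in the other condition, and why they differed was not tested. Reading the same rule in libraries labelled bmp4 RNAi, an alternative added after the data were seen, chose 44 transcripts, 34 of them members (69.4% of the members and 77.3% of the 44). At 6 hpa 46.9% of the members were lower in libraries labelled bmp4 RNAi, against 36.4% of those 44 (16, with 2 higher). At 16 hpa the shares were 51% of the members and 54.5% of the 44 (24, with 5 higher), and at 24 hpa 44.9% of the members and 45.5% of the 44 (20, with 6 higher). At 48 hpa 63.3% of the members were lower, against 43.2% of the 44 (19, with 5 higher and a median of -0.32). Of the 34 that both readings chose, 17 were lower and 3 higher at 48 hpa (50% lower).

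Across the 4 times, 12 members were lower at each of them and 1 was higher at each. Of all tested, 1.83% were lower at each and 2.7% higher at each. Another 20 members were lower at 1, 2 or 3 times and higher at none, 3 were higher at 1, 2 or 3 times and lower at none, and 7 turned direction, against 22.9%, 21.9% and 2.54% of all tested. The 6 called at no time, where 48.1% of all tested were in that class, were dd_Smed_v6_10685_0_1, dd_Smed_v6_12587_0_1, dd_Smed_v6_12691_0_1, dd_Smed_v6_16532_0_1, dd_Smed_v6_22419_0_1 and dd_Smed_v6_4185_0_1. The comparisons at different times use different libraries.

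The transcript with the largest induction, dd_Smed_v6_16222_0_1, was also the member furthest below control late on. It was nearly silent at 0 hpa, at 0.325 ± 0.1 CPM in libraries labelled bmp4 RNAi and 0.543 ± 0.152 CPM in control (SD, n = 5 each). At 6 hpa it measured 44.7, 35.6, 24.5, 35.2 and 43.2 CPM in libraries labelled bmp4 RNAi and 73.8, 64.4, 57.7, 72.0 and 70.0 CPM in control. The groups did not overlap, and the induction to 6 hpa was still more than an order of magnitude in both conditions. At 48 hpa it measured 1.78, 2.22, 1.62, 2.21 and 0.982 CPM in libraries labelled bmp4 RNAi, against 13.4, 11.6, 10.5, 11.8 and 13.4 CPM in control. All 5 libraries labelled bmp4 RNAi thus lay far below the lowest control library.

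The estimated gap of dd_Smed_v6_16222_0_1 was wider at each later time. Its log2 fold change, libraries labelled bmp4 RNAi minus control, at 6, 16, 24 and 48 hpa was -0.92, -1.80, -2.55 and -2.75, with SE 0.164 and 0.223 and edgeR BH-adjusted p = 2.63e-05 and adjusted p = 7.16e-15 for the first and last of these. Between 6 and 48 hpa it fell by 4.46 on the log2 scale in libraries labelled bmp4 RNAi and fell by 2.63 in control, and the 2 changes differed by -1.83 (SE 0.279, edgeR BH-adjusted p = 2.82e-06). Between 3 and 6 hpa it rose by 1.51 in libraries labelled bmp4 RNAi (SE 0.178, edgeR BH-adjusted p = 4.08e-08).

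The second largest induction, that of dd_Smed_v6_9273_0_1, peaked at 6 hpa in both conditions, lower in libraries labelled bmp4 RNAi, and fell afterwards. At 6 hpa it measured 76.5, 63.2, 62.5, 62.2 and 73.0 CPM in libraries labelled bmp4 RNAi, against 120, 110, 116, 123 and 130 CPM in control. At 48 hpa it measured 14.3, 18.5, 15.4, 14.6 and 13.4 CPM in libraries labelled bmp4 RNAi, against 38.6, 32.8, 34.9, 32.8 and 28.8 CPM in control. The groups were apart at both times. Its log2 fold change over the 4 times was -0.87, -1.13, -1.09 and -1.12, with SE 0.111 and 0.118 and edgeR BH-adjusted p = 1.36e-08 and adjusted p = 1.61e-11 at the first and last of them. The difference between conditions in the change from 6 to 48 hpa was -0.25 (SE 0.161, edgeR BH-adjusted p = 0.292), so a change in the gap was not detected.

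The other member named for its low level at 48 hpa, dd_Smed_v6_13985_0_1, was alike in both conditions at first and rose again late in control. At 6 hpa it measured 9.64, 8.95, 8.38, 7.42 and 8.58 CPM in libraries labelled bmp4 RNAi and 7.82, 7.95, 6.06, 9.26 and 10.5 CPM in control, and these values overlapped (log2 fold change 0.00, SE 0.134, edgeR BH-adjusted p = 0.996). At 48 hpa it measured 5.22, 5.49, 4.31, 4.79 and 5.67 CPM in libraries labelled bmp4 RNAi, against 27.7, 28.7, 24.1, 24.1 and 23.5 CPM in control. Every control library was then more than 4 times the highest library labelled bmp4 RNAi. The log2 fold change was -0.70 and -0.77 at 16 and 24 hpa and reached -2.32 at 48 hpa (SE 0.134, edgeR BH-adjusted p = 9.48e-22). From 6 to 48 hpa it fell by 0.85 in libraries labelled bmp4 RNAi (SE 0.137, edgeR BH-adjusted p = 3.49e-06) and rose by 1.47 in control (SE 0.13, edgeR BH-adjusted p = 2.48e-14). The 2 changes differed by -2.32 (SE 0.189, edgeR BH-adjusted p = 4.49e-14).

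The SOCS-box transcript dd_Smed_v6_10685_0_1 was among the members called at no time. At 6 hpa it measured 1.94, 1.75, 2.66, 1.93 and 2.66 CPM in libraries labelled bmp4 RNAi and 3.07, 2.13, 3.61, 3.68 and 3.41 CPM in control. The groups overlapped by the lowest control library, and the log2 fold change was -0.57 (SE 0.217, edgeR BH-adjusted p = 0.0618). At 16, 24 and 48 hpa it was -0.44, -0.65 and -0.34, with edgeR BH-adjusted p = 0.189, 0.0627 and 0.319. It averaged 28.9 counts per library. It declined after 6 hpa in both conditions, by 48 hpa with a log2 change of -1.07 in libraries labelled bmp4 RNAi (SE 0.239, edgeR BH-adjusted p = 0.000578) and -1.30 in control (SE 0.231, edgeR BH-adjusted p = 5.75e-06).

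Another 5 members were singled out after their values were seen. The first, dd_Smed_v6_14011_0_1, was the only member higher in libraries labelled bmp4 RNAi at all 4 times and the only one called higher at 6 hpa. At 16 hpa it measured 15.4, 15.3, 16.6, 17.1 and 19.7 CPM in libraries labelled bmp4 RNAi, against 4.92, 5.05, 3.34, 3.59 and 4.36 CPM in control. The lowest library labelled bmp4 RNAi was about 3 times the highest control. Its log2 fold change at 6, 16, 24 and 48 hpa was 0.51, 1.93, 0.65 and 0.57, with SE 0.14, 0.158, 0.17 and 0.152 and edgeR BH-adjusted p = 0.00594, 6.66e-15, 0.00357 and 0.00194. At 48 hpa the lowest library labelled bmp4 RNAi (8.62 CPM) lay below the highest control library (9.21 CPM). It was induced in both conditions and lost from control sooner. From 6 to 16 hpa it fell by 0.61 in libraries labelled bmp4 RNAi and fell by 2.02 in control, a difference of 1.41 (SE 0.211, edgeR BH-adjusted p = 1.61e-05), while at 24 hpa the difference in change was 0.14 (edgeR BH-adjusted p = 0.817).

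The member furthest above control at 16 hpa, dd_Smed_v6_30110_0_2, had a course of the same kind. It measured 1.68, 2.60, 1.95, 2.18 and 1.46 CPM at 16 hpa in libraries labelled bmp4 RNAi, against 0.583, 0.481, 0.485, 0.322 and 0.363 CPM in control. These values rest on few counts, 22 to 39 per library labelled bmp4 RNAi and 7 to 9 per control library. Its mean over all libraries was 14.5 counts. The groups were apart at 16 hpa, with a log2 fold change of 2.08 (SE 0.254, edgeR BH-adjusted p = 2.88e-09), and at 24 hpa the value was 0.12 (SE 0.288, edgeR BH-adjusted p = 0.852). By 48 hpa it had fallen back to 0.169 ± 0.0888 CPM in libraries labelled bmp4 RNAi and 0.295 ± 0.136 CPM in control (SD, n = 5 each), on 1 to 8 counts per library.

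The late riser dd_Smed_v6_158_0_1 was the member with the largest rise after 6 hpa in control. At 24 hpa it measured 81.6, 88.3, 84.8, 98.3 and 91.4 CPM in libraries labelled bmp4 RNAi, against 201, 185, 276, 222 and 197 CPM in control. At 48 hpa it measured 32.7, 34.4, 34.3, 38.3 and 33.6 CPM in libraries labelled bmp4 RNAi, against 185, 144, 156, 127 and 149 CPM in control. The groups were apart at both times. The log2 fold change was -0.45 at first (SE 0.156, edgeR BH-adjusted p = 0.0357), then -0.94 and -1.30 at 16 and 24 hpa, and by 48 hpa -2.12 (SE 0.158, edgeR BH-adjusted p = 5.2e-16). The call at 6 hpa was lost without any 1 of 5 libraries, replicates 1, 3 and 4 of bmp4 RNAi and 1 and 5 of control, with values between -0.47 and -0.35. From 6 to 48 hpa it changed by -0.08 in libraries labelled bmp4 RNAi (SE 0.156, edgeR BH-adjusted p = 0.751) and rose by 1.58 in control (SE 0.155, edgeR BH-adjusted p = 5.49e-12).

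The most abundant member, dd_Smed_v6_320_0_1, turned direction. At 16 hpa it measured 2933, 2843, 2996, 2927 and 2797 CPM in libraries labelled bmp4 RNAi, against 2064, 2188, 2205, 2035 and 2192 CPM in control. At 48 hpa it measured 1371, 1232, 1293, 1195 and 1294 CPM in libraries labelled bmp4 RNAi, against 2088, 1928, 2039, 2040 and 1839 CPM in control. All treated libraries were above control at the earlier time and below it at the later. Relative to control it differed by 0.38 in log2 at 16 hpa (SE 0.0849, edgeR BH-adjusted p = 0.000715) and -0.62 at 48 hpa (SE 0.0851, edgeR BH-adjusted p = 2.08e-08). A similar excess was present at 0 hpa, with means of 1979 CPM in libraries labelled bmp4 RNAi and 1545 CPM in control. The libraries at 0 hpa overlapped. As differences in log2 level, the values at 0, 6, 16 and 24 hpa were 0.36, 0.02, 0.44 and -0.05.

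The widest turn was that of dd_Smed_v6_57931_0_1, a low transcript. At 16 hpa it measured 0.481, 0.200, 0.287, 0.150 and 0.199 CPM in libraries labelled bmp4 RNAi, against 1.62, 1.44, 1.02, 1.66 and 1.87 CPM in control. At 24 hpa the order was the opposite, with 1.78, 0.545, 0.574, 1.05 and 1.57 CPM in libraries labelled bmp4 RNAi, against 0.241, 0, 0.236, 0.050 and 0.238 CPM in control. The groups were apart both times, on 2 to 36 counts per library at 16 hpa and 0 to 31 at 24 hpa. Relative to control it differed by -1.92 in log2 at 6 hpa (SE 0.395, edgeR BH-adjusted p = 0.000194), -2.49 at 16 hpa (edgeR BH-adjusted p = 2.51e-06) and 2.85 at 24 hpa (SE 0.464, edgeR BH-adjusted p = 3.03e-06). The other members that turned direction were dd_Smed_v6_10783_0_1, dd_Smed_v6_1580_0_1, dd_Smed_v6_31634_0_1, dd_Smed_v6_511_0_1 and dd_Smed_v6_758_1_1.

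**Figure D3:**
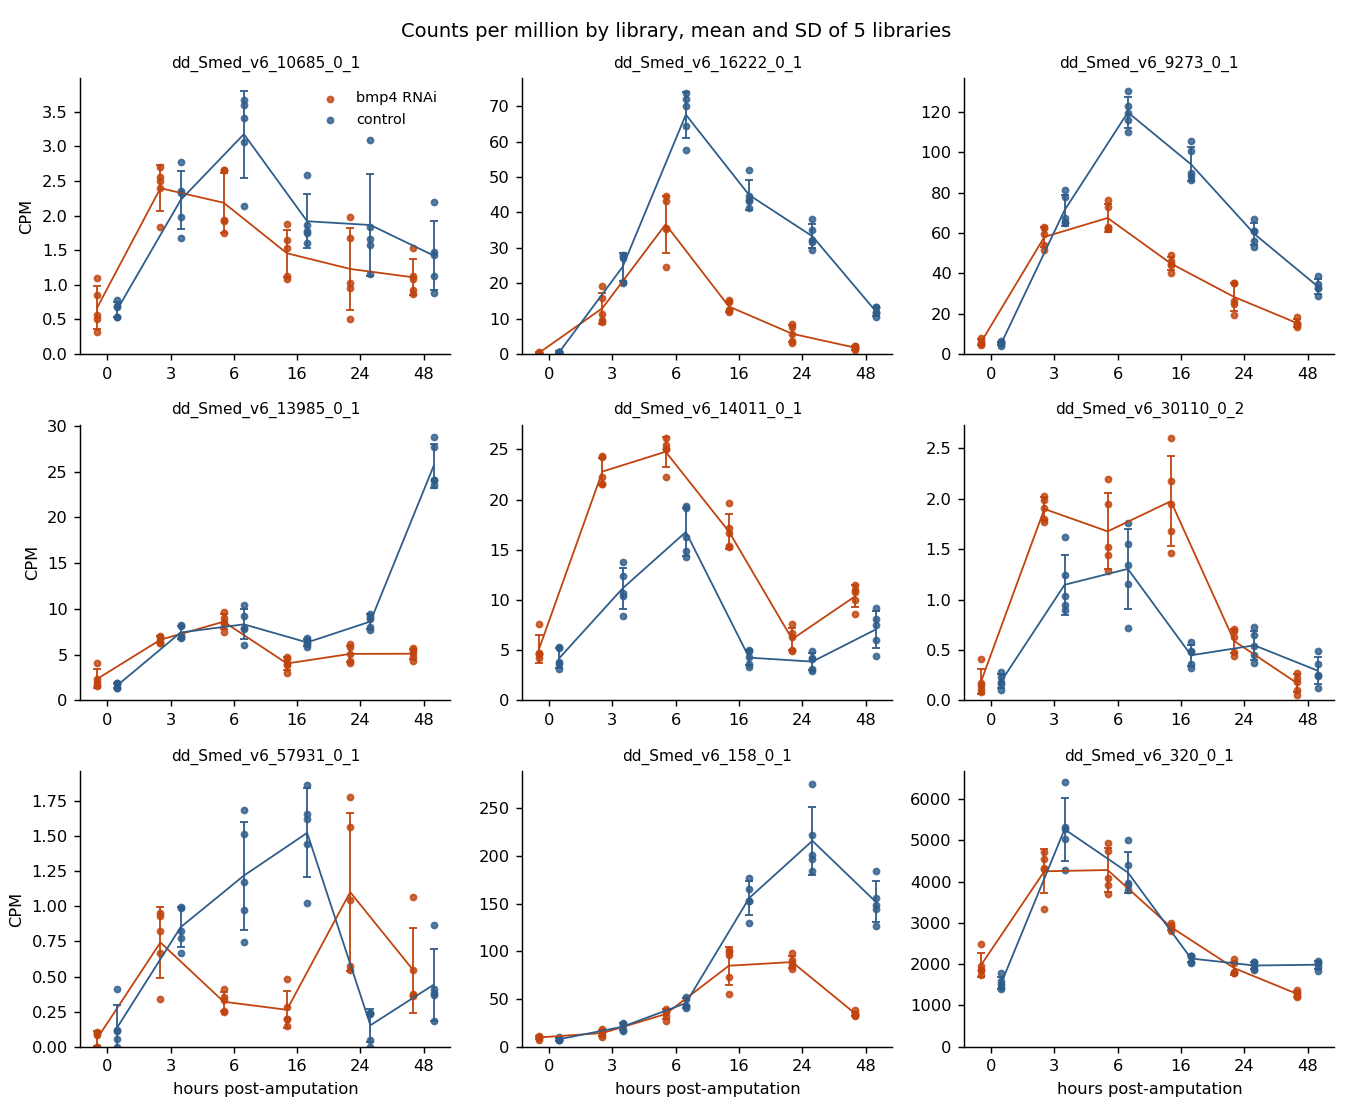
CPM in each library by time for the 9 members described by library, with libraries labelled bmp4 RNAi (orange) left of control (blue) at each time, lines through the means and bars of 1 SD (n = 5). The axes start at 0 and differ in range; at 48 hpa dd_Smed_v6_13985_0_1 averages 5.10 CPM in libraries labelled bmp4 RNAi and 25.6 CPM in control.

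Few members were called higher in libraries labelled bmp4 RNAi at 24 and 48 hpa, and they are named here for that reason. At 24 hpa they were dd_Smed_v6_57931_0_1 and dd_Smed_v6_14011_0_1 with dd_Smed_v6_15647_0_1 (log2 fold change 1.23, edgeR BH-adjusted p = 0.000234) and dd_Smed_v6_3606_0_1 (0.71, edgeR BH-adjusted p = 0.0486). At 48 hpa they were dd_Smed_v6_14011_0_1, dd_Smed_v6_31634_0_1 (0.80, edgeR BH-adjusted p = 0.0327) and dd_Smed_v6_10783_0_1 (0.45, edgeR BH-adjusted p = 0.0208). Leaving out 1 library ended the call of dd_Smed_v6_3606_0_1 at 24 hpa in 8 of 10 fits, all but those without replicate 2 or 3 of bmp4 RNAi. It ended that of dd_Smed_v6_31634_0_1 at 48 hpa in 7 (bmp4 RNAi replicates 2, 3 and 5, control replicates 2, 3, 4 and 5) and that of dd_Smed_v6_10783_0_1 in 4 (replicates 2 and 3 of bmp4 RNAi, 2 and 4 of control).

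Within libraries labelled bmp4 RNAi, the change from 3 to 6 hpa went both ways. There 12 members rose and 6 fell, where 2.46% of all tested rose and 2.14% fell, with a median change of 0.13. From 6 to 16 hpa 7 rose and 18 fell (6.66% and 6.33% of all tested), with a median of -0.25. From 6 to 24 hpa 5 rose and 28 fell (12.4% and 11.3%), with a median of -0.44, and the risers were dd_Smed_v6_57931_0_1 (1.75), dd_Smed_v6_158_0_1 (1.34), dd_Smed_v6_3606_0_1 (1.18), dd_Smed_v6_16532_0_1 (0.98) and dd_Smed_v6_585_0_1 (0.27). Leaving out 1 library ended the call of dd_Smed_v6_585_0_1 in 6 of 10 fits (replicates 1 and 3 at 6 hpa and 2, 3, 4 and 5 at 24 hpa) and that of dd_Smed_v6_16532_0_1 in 1 (replicate 3 at 6 hpa).

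By 48 hpa most of the set had declined. In the libraries labelled bmp4 RNAi 37 members were lower at 48 than at 6 hpa and 0 were higher (11.2% and 9.56% of all tested), with a median of -0.91. At an unadjusted p under 0.05 edgeR gave 1 higher, and DESeq2 called 0. In control 38 were lower and 5 higher (17.2% and 17.7% of all tested), with a median of -0.81. The 5 were dd_Smed_v6_158_0_1 (1.58), dd_Smed_v6_13985_0_1 (1.47), dd_Smed_v6_13860_0_1 (0.57), dd_Smed_v6_11254_0_1 (0.52) and dd_Smed_v6_9610_0_1 (0.30, edgeR BH-adjusted p = 0.0428). For dd_Smed_v6_9610_0_1 the call was lost in 9 of the 10 fits that left out 1 library, all but the one without replicate 1 of control at 48 hpa.

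The decline in control was under way at the earlier times. From 6 to 16 hpa 24 members fell and 3 rose in control (6.29% and 8.85% of all tested), with a median of -0.36. The risers were dd_Smed_v6_158_0_1 (1.73), dd_Smed_v6_17168_1_1 (0.58) and dd_Smed_v6_585_0_1 (0.42), and the call of dd_Smed_v6_17168_1_1 was lost without replicate 1 or 2 of control at 6 hpa. From 6 to 24 hpa 33 fell and 6 rose (11% and 11.4% of all tested), with a median of -0.60. The comparisons within a condition share its libraries at 6 hpa, so their counts are not independent of each other.

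Whether the course after 6 hpa differed between conditions was tested as an interaction, the change in libraries labelled bmp4 RNAi minus the change in control. At 16 hpa it was above 0 for 7 members and below 0 for 0, where 0.281% and 0.232% of all tested were, with 6 below 0 at an unadjusted p under 0.05 by edgeR and 2 called by DESeq2. The largest were dd_Smed_v6_30110_0_2 (1.80, edgeR BH-adjusted p = 0.00123) and dd_Smed_v6_3606_0_1 (1.58, edgeR BH-adjusted p = 0.0224). The former averaged only 14.5 counts per library. Without replicate 1 of control at 16 hpa 3 members were called. Leaving out control replicates 1 or 2 at 6 hpa or 4 at 16 hpa, or bmp4 RNAi replicates 4 or 5 at 6 hpa or 2 at 16 hpa, gave 4.

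At 24 hpa the interaction was above 0 for 6 members and below 0 for 4 (1.18% and 0.724% of all tested). The 4 were dd_Smed_v6_16222_0_1 (-1.63), dd_Smed_v6_158_0_1 (-0.85), dd_Smed_v6_13985_0_1 (-0.77) and dd_Smed_v6_9825_0_1 (-0.36). The call of dd_Smed_v6_158_0_1 was lost without replicate 3 of control at 6 or at 24 hpa, and that of dd_Smed_v6_13985_0_1 without replicate 3 of control at 6 hpa or replicate 1 of bmp4 RNAi at 24 hpa. Without replicate 3 of control at 6 hpa 6 members were called in all. At 48 hpa it was above 0 for 7 and below 0 for 16 (7.66% and 9.89% of all tested), with a median of -0.30 over the members and -0.01 over all tested. With the rise read in libraries labelled bmp4 RNAi, 10 of the 44 transcripts were above 0 and 10 below, with a median of 0.05. Among the 34 that both readings chose, 7 were above 0 and 9 below, with a median of -0.17. The excess below 0 was thus absent in the 44, and why was not tested. Among the members the lowest interaction was that of dd_Smed_v6_13985_0_1 and the highest that of dd_Smed_v6_31634_0_1, at 2.28 (SE 0.417, edgeR BH-adjusted p = 5.46e-05).

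**Figure D4:**
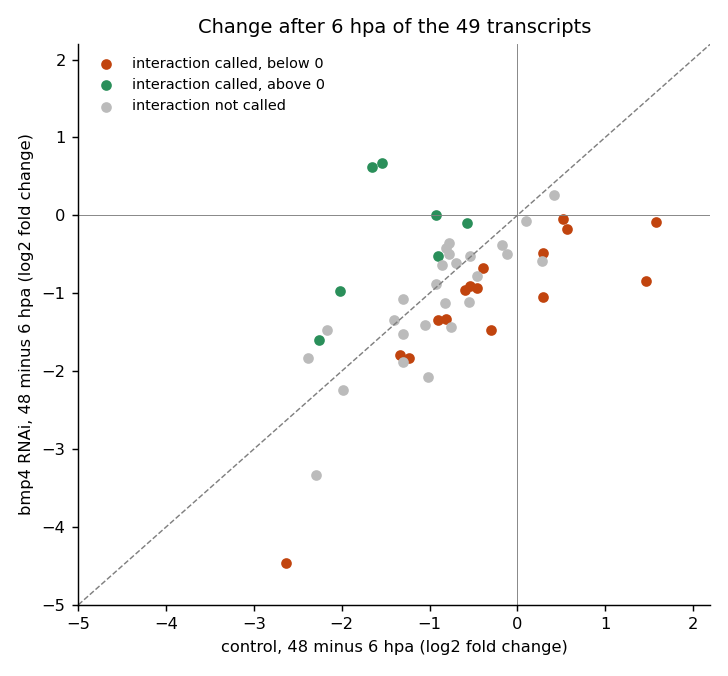
edgeR log2 fold change from 6 to 48 hpa in libraries labelled bmp4 RNAi (vertical) and control (horizontal) for the 49 transcripts, with equal change on the dashed line. The 16 orange points, below the line, are members whose interaction was called below 0, and the 7 green points those called above 0. With the rise read in libraries labelled bmp4 RNAi, 10 of 44 transcripts (not drawn as a set) were called below 0 and 10 above.

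For a view of annotated signalling, regulatory and ribosomal genes, 3 lists were counted from the annotation rows held here. TRAF-type adaptors, which pass signals from cell-surface receptors to kinases, numbered 12, of which 10 were tested, with 2, 0, 0 and 5 lower and 1 higher each time at 6, 16, 24 and 48 hpa in libraries labelled bmp4 RNAi. Of 15 transcription factors with C2H2 zinc finger or bZIP domains, 1, 1, 1 and 5 were lower and 1, 3, 2 and 2 higher at those times, with medians of 0.03, 0.10, 0.11 and -0.17. Of 10 transcripts named by similarity to human cytosolic ribosomal proteins, names that were not checked, only 3 were tested. Of these, 0 were called at 6, 16 and 24 hpa and 1 was higher at 48 hpa. The shares of all tested called lower at these times were 7.43%, 9.56%, 6.5% and 18.6%. Those called higher were 9.67%, 9.68%, 10.2% and 17.3%. The lists' medians at 48 hpa were -0.17, -0.17 and -0.05, in the order given, against -0.51 for the members and 0.01 for all tested.

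Within groups the members varied slightly more than other transcripts. Their median SD of log2 values within a group was 0.239, against 0.208 over all tested. In some groups 1 library led, as when replicate 2 of control at 16 hpa was highest for 25 members, replicate 1 of bmp4 RNAi at 24 hpa was lowest for 24 and replicate 1 of bmp4 RNAi at 0 hpa was highest for 22. Leaving out any 1 library of the 2 groups compared gave between 19 and 24 called members at 6 hpa, 30 and 33 at 16 hpa, 23 and 27 at 24 hpa, and 31 and 34 at 48 hpa.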

How the data were processed

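The deposited values were raw read counts per transcript. The authors mapped 50-base reads to the dd_Smed_v6 transcriptome with Bowtie, asking for the best alignment, used bedtools coverageBed to count reads on each contig, and added up the contigs of one group, and the submitters' processing notes name CASAVA 1.9, cutadapt 1.8, Bowtie 1.2 and SAMtools 1.6. Whether strand was used, and which of several equally good matches a read was given to, are not stated beyond that in the sources used here, so values of near-identical or overlapping transcripts are uncertain. Members and lists were chosen with earlier results of these data known.

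Transcripts were kept by edgeR's filterByExpr (minimum count 10, minimum total 15), which left 18510 with 99.9% of counts. All 60 libraries, grouped by label, entered a robust quasi-likelihood fit in edgeR 4.0.16 (limma 3.58.1, R 4.3.3) with TMM factors of 0.926 to 1.12. Tests were two-sided with Benjamini-Hochberg adjustment, and the fit was tested on simulated data. The authors tested pairs of groups with DESeq. DESeq2 1.42.0, other scalings, no filter, only the groups compared, a replicate block, a within-group component, a 2-fold minimum and leaving out libraries were alternatives.

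Named were annotated members, the 2 unannotated members with the largest rise to 3 hpa in control, the 2 lowest at 48 hpa among those called, bmp4 and equinox. Members behind counts of 5 or fewer, and 5 singled out, were added after their values were seen. No libraries of a group were closer than counting error allows (smallest chi-square per degree of freedom 3.39). The labels do not say that replicates came from separate cultures, so p-values measure the spread between these pools.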

Additional observations from a re-analysis of the deposited data

Results flagged for a closer look

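Single libraries stood apart in 6 groups of 5 when each of the 12 groups was checked for the 9 members described by library, and chance gives about 1 in 20. At 0 hpa in libraries labelled bmp4 RNAi, dd_Smed_v6_13985_0_1 was at 4.13 CPM in 1 library with the next at 2.28 CPM, dd_Smed_v6_14011_0_1 at 7.60 CPM with the next at 4.72 CPM, and dd_Smed_v6_30110_0_2 at 0.406 CPM with the next at 0.171 CPM. These were 3 different libraries, namely replicates 5, 1 and 2. The low transcript dd_Smed_v6_57931_0_1 had 1.07 CPM in 1 bmp4 RNAi library at 48 hpa, with the next at 0.545 CPM, and 0.414 CPM in 1 control library at 0 hpa, with the next at 0.117 CPM. The SOCS-box transcript dd_Smed_v6_10685_0_1 had 2.59 CPM in 1 control library at 16 hpa, with the next at 1.87 CPM.

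The change after 6 hpa differed between the libraries labelled bmp4 RNAi and control, by the edgeR interaction test, for named members at 3 times. At 16 hpa the difference was 1.41 for dd_Smed_v6_14011_0_1, 1.80 for dd_Smed_v6_30110_0_2 and 1.58 for dd_Smed_v6_3606_0_1. At 24 hpa it was -1.63 for dd_Smed_v6_16222_0_1, -0.85 for dd_Smed_v6_158_0_1, -0.77 for dd_Smed_v6_13985_0_1, -0.36 for dd_Smed_v6_9825_0_1, 1.23 for dd_Smed_v6_15647_0_1, 2.17 for dd_Smed_v6_31634_0_1 and 4.78 for dd_Smed_v6_57931_0_1.

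At 48 hpa the difference was below 0 for dd_Smed_v6_13985_0_1 (-2.32), dd_Smed_v6_16222_0_1 (-1.83), dd_Smed_v6_158_0_1 (-1.66), dd_Smed_v6_17168_1_1 (-1.34), dd_Smed_v6_9610_0_1 (-0.77), dd_Smed_v6_13860_0_1 (-0.74), dd_Smed_v6_320_0_1 (-0.59), dd_Smed_v6_11254_0_1 (-0.57) and dd_Smed_v6_9825_0_1 (-0.37). It was above 0 for dd_Smed_v6_31634_0_1 (2.28), dd_Smed_v6_57931_0_1 (2.22) and dd_Smed_v6_10783_0_1 (0.93).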

How the results depend on the processing

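No named result changed direction under any alternative run. The counts below are of members alone, and shares of all tested are given only for the main settings. Whether the members stood out from all tested under an alternative thus cannot be read from them. The number of called members fell most with a 2-fold minimum, as its construction implies, to 4, 9, 7 and 10 for libraries labelled bmp4 RNAi minus control at 6, 16, 24 and 48 hpa. With that minimum it was 4 from 3 to 6 hpa and 6, 12 and 21 from 6 to 16, 24 and 48 hpa in libraries labelled bmp4 RNAi, 5, 18 and 19 in control, and 3, 4 and 8 for the interaction. The lower share of the calls between conditions was then 100%, 66.7%, 71.4% and 100% at 6, 16, 24 and 48 hpa, against 95.8%, 78.1%, 84.6% and 91.2%. With only the groups compared in the fit, calls numbered 11 from 3 to 6 hpa and 16 from 6 to 16 hpa in libraries labelled bmp4 RNAi, and 6 for the interaction at 24 hpa. A leading within-group component as covariate gave 12 calls for the interaction at 16 hpa, 25% of them below 0, and the cause was not tested. DESeq2 gave 9 there with 22.2% below 0. A 4-fold rise left 6 members.

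Restricting the set to the 34 members chosen in both conditions, after the data were seen, gave 20 calls at 48 hpa, 24 from 6 to 48 hpa in libraries labelled bmp4 RNAi, 17 from 6 to 16 hpa in control and 4 for the interaction at 16 hpa, from fewer members. Leaving out single libraries gave 3 to 9 calls for the interaction at 16 hpa and 6 to 10 at 24 hpa. Replicate numbers did not pair the libraries, with r of same-numbered deviations between -0.21 and 0.31 and 4 of 30 pairs over 0.1. The replicate block left 25, 32, 26 and 34 called members at 6, 16, 24 and 48 hpa. Scaling by TMM kept 47 of the 49 members and a pseudocount of 1 kept 35.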
